A study of Homo sapiens with 16 samples.

Results

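The clustered replication-dependent histone genes were followed here through 1 h of EGF or TPA stimulation of CCD-1070Sk cells, with and without the kinase inhibitor H89. The genes were taken by symbol: all rows whose name starts with HIST1H, HIST2H, HIST3H or HIST4H. Of 79 such rows, 13 held no count in any library and were dropped. These were HIST1H4G and 12 rows named as copies of HIST2 genes. The copy rows stood for HIST2H2AA3, HIST2H2AA4, HIST2H3A, HIST2H3C, HIST2H4A and HIST2H4B. No other row of these HIST2 genes was present, so they are not measured here. The 66 genes that remained, of 28374 rows in all, comprise 6 H1, 16 H2A, 20 H2B, 12 H3 and 12 H4 genes. By cluster, 55 belong to HIST1 on chromosome 6, 7 to HIST2 and 3 to HIST3, both on chromosome 1, and 1, HIST4H4, lies on chromosome 12. Coding sequences of the H2A, H2B, H3 and H4 genes are closely alike within a class, so how the counting divided reads between close copies of a core histone is uncertain; the H1 genes differ more from each other. In 5 members the annotated gene also overlaps another member (HIST1H2AK, HIST1H2BN, HIST1H2AL, HIST1H3J and HIST1H2AM).

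Replication-dependent histone genes supply the H2A, H2B, H3 and H4 that wrap newly copied DNA into nucleosomes and the H1 that binds the linker between them. Their mRNAs have no introns and, alone among animal mRNAs, end in a conserved stem-loop in place of a poly(A) tail. The stem-loop binding protein SLBP holds that stem-loop through processing, export, translation and decay, and NPAT, at the histone locus body, drives their transcription as cells enter S phase. Several of these genes also make polyadenylated transcripts from downstream poly(A) sites, which are known in resting and differentiated cells.

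CCD-1070Sk is a human skin fibroblast line, and all cultures of the study were starved of serum. Untreated controls were taken at 0 h (3 libraries). EGF was given at 30 ng/ml for 1 h (3 libraries), and TPA, a phorbol ester that activates protein kinase C, at 100 nM for 1 h (2 libraries). H89 alone was given at 10 µM for 30 min and is labelled 0 h (3 libraries). The same H89 pretreatment came before 1 h of EGF (2 libraries) or of TPA (2 libraries). The inhibitor was used to block the MSK kinases, per the labels' protocols. RNA was depleted of ribosomal RNA rather than selected by poly(A) tail, so transcripts with and without a tail could both be read. A further untreated library held the same count as the third control at all 19340 genes with a count in either and was counted once with it, which leaves 15 libraries. Whether the libraries of a group stem from separate cultures is not stated in the labels, and p-values speak only for the spread among these libraries, which may be technical. In bulk RNA, fewer cells making a transcript and less of it per cell cannot be told apart.

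Total counts ran from 7527026 in TPA+H89 1 to 130075914 in TPA 2, and the 66 genes took 0.0794% to 0.196% of them. Levels are given as TMM-scaled CPM, a count corrected for library size (CPM below). Libraries fell into 3 sets that the labels do not name, although the labels' protocols mention several sequencing instruments: in the first control and EGF libraries (set A) genes with a single count outnumbered those with 2; 6 libraries had over 5% of counts in mitochondrial RNR1 and RNR2 (set B: TPA+H89 1, EGF+H89 1, H89 1, TPA 1, EGF 2 and control 2); and the other 7 had neither property (set C: TPA+H89 2, EGF+H89 2, H89 2, H89 3, TPA 2, EGF 3 and control 3). Libraries TPA 2 and TPA+H89 1 stood apart from the rest in histone levels, as described below, and values without them, or the level in each library, are given beside the results that rest on them. The 10 listed fibroblast markers summed to between 32920 and 67236 CPM. Of the 5 keratinocyte markers 4, and of the 5 leukocyte markers 3, were under 1 CPM in every library; the keratinocyte sum ran from 6.47 to 47.7 CPM, highest in TPA 2, and the leukocyte sum from 11.4 to 67.1 CPM. The part of either in the histone values was not tested.

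The 3′ stem-loops are shown first because they mark these transcripts as a family. A search for the 16-base element (6 paired bases, a loop of 4, 6 paired bases) within 120 bases after the stop codon, in GENCODE release 29 transcripts, found it in 26 members; the annotated transcripts of only 26 members held at least 60 bases past the coding part. There were 6 distinct sequences, lying 22 to 56 bases after the stop codon. Capitals mark the stem-loop, with 5 bases on each side, and the sequences are written as DNA.
HIST1H2AC: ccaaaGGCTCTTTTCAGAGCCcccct
HIST1H2BC: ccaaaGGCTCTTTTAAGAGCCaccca
HIST1H3E: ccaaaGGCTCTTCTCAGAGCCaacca
HIST1H2AG: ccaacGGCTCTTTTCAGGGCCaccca
HIST1H4E: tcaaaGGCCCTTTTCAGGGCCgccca
HIST1H4I: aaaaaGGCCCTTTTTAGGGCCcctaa
The form in HIST1H2AC was found in 13 members, and that in HIST1H2BC in 5. The form in HIST1H4E was found in 5 members, all of them H4 genes. The forms in HIST1H3E, HIST1H2AG and HIST1H4I were found in 1 member each. In 18 members the annotation runs on for 200 or more bases after the loop.

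Many H2A and H2B genes lie head to head and share 1 short promoter region: 11 such pairs had annotated starts less than 600 bases apart. RefSeq promoters (GRCh38.p14, 250 bases before to 50 after the start) were matched for 56 of the 66 members. On both strands of that window, the octamer ATTTGCAT was in 11 of 14 H2A and 14 of 18 H2B promoters, 1 of 8 H3 promoters and 0 of 10 H4 promoters, against 1.77% of all 35116 promoters. The H3 match was HIST1H3D, whose matched promoter is the same stretch as that of HIST1H2AD. Head-to-head H2A and H2B genes were counted in both classes although their windows overlap, so these are not all separate promoters. CCAAT was in 49 of 56 members (34.6% of all promoters), TATAAA in 37 (11.5%), and TTTCGCGC in 12 (0.515%), while TTTGGCGC was in none (0.652%). CCAAT was in 3 of the 10 H4 promoters and in every H1, H2A, H2B and H3 promoter matched. The 250 upstream bases of 3 H2A genes and 1 H4 gene whose levels are described below are printed because they show these layouts; capitals mark the 4 motifs that were found, on either strand, where neighbouring matches may run together.
HIST2H2AC, chr1:149886668-149886917, plus strand: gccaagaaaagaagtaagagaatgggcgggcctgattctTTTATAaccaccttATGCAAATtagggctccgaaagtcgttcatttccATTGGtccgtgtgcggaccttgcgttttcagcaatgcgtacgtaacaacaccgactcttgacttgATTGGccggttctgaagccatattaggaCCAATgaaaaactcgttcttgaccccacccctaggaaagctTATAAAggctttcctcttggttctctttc
HIST1H2AG, chr6:27132793-27133042, plus strand: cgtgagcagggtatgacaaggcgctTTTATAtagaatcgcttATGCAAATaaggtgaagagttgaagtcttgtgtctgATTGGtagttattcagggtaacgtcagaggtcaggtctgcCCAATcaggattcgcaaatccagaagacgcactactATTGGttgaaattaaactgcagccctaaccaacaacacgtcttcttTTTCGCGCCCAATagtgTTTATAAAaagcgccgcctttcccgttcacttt
HIST1H2AE, chr6:26216671-26216920, plus strand: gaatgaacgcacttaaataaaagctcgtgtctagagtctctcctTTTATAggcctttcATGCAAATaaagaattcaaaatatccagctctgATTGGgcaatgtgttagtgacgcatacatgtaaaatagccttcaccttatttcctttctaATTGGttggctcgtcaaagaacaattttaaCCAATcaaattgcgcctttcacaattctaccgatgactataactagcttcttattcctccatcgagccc
HIST1H4B, chr6:26027284-26027533, minus strand: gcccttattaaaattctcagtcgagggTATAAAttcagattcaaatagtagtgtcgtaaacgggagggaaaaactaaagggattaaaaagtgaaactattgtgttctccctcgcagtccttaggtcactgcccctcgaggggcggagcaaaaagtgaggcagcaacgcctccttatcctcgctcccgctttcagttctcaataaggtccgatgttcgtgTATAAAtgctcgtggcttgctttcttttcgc
Each of these H2A stretches is almost the same region as the promoter of its H2B partner read on the other strand (HIST2H2BE, HIST1H2BJ and HIST1H2BG). A match is a description of letters and not evidence of a bound factor.

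Serum-starved fibroblasts held histone transcripts of every class. The 66 genes summed to between 868 and 2688 CPM, with a median of 998.7 over the 15 libraries. By class the medians were 194 CPM for H1, 211 for H2A, 255 for H2B, 69.4 for H3 and 282 for H4. Per kilobase of coding sequence, the highest mean levels over the 15 libraries were those of HIST1H4E (341 CPM per kb) and HIST1H2AC (328), followed by HIST1H4C (199), the linker histone HIST1H1C (196), HIST2H2AC (155), HIST1H2BK (155) and HIST1H2BC (143). Over the 13 libraries without TPA 2 and TPA+H89 1, a choice made after seeing the data, the order was HIST1H4E (266 CPM per kb), HIST1H2AC (264), HIST1H1C (208), HIST1H2BK (154), HIST1H4C (138) and HIST1H2BC (129), and HIST2H2AC stood at 99.4. The H3 genes were lower on the same scale: HIST1H3D averaged 37.7, HIST1H3H 31.6, HIST1H3E 23.4 and HIST1H3F 19.7 CPM per kb. Division by coding length overstates the level of a gene whose longer transcripts were read too. The germline genes HIST1H2AA, HIST1H2BA and HIST1H1T, and HIST3H3 and the pseudogene HIST1H2APS1, were at or near 0. These did not pass the filter on low counts, and the other 61 members did, of 18575 genes tested (5 H1, 14 H2A, 19 H2B, 11 H3 and 12 H4). Among the 61, HIST2H2BA and HIST2H2BC had no annotated coding transcript, and so no level per kilobase.

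**Figure D1:**
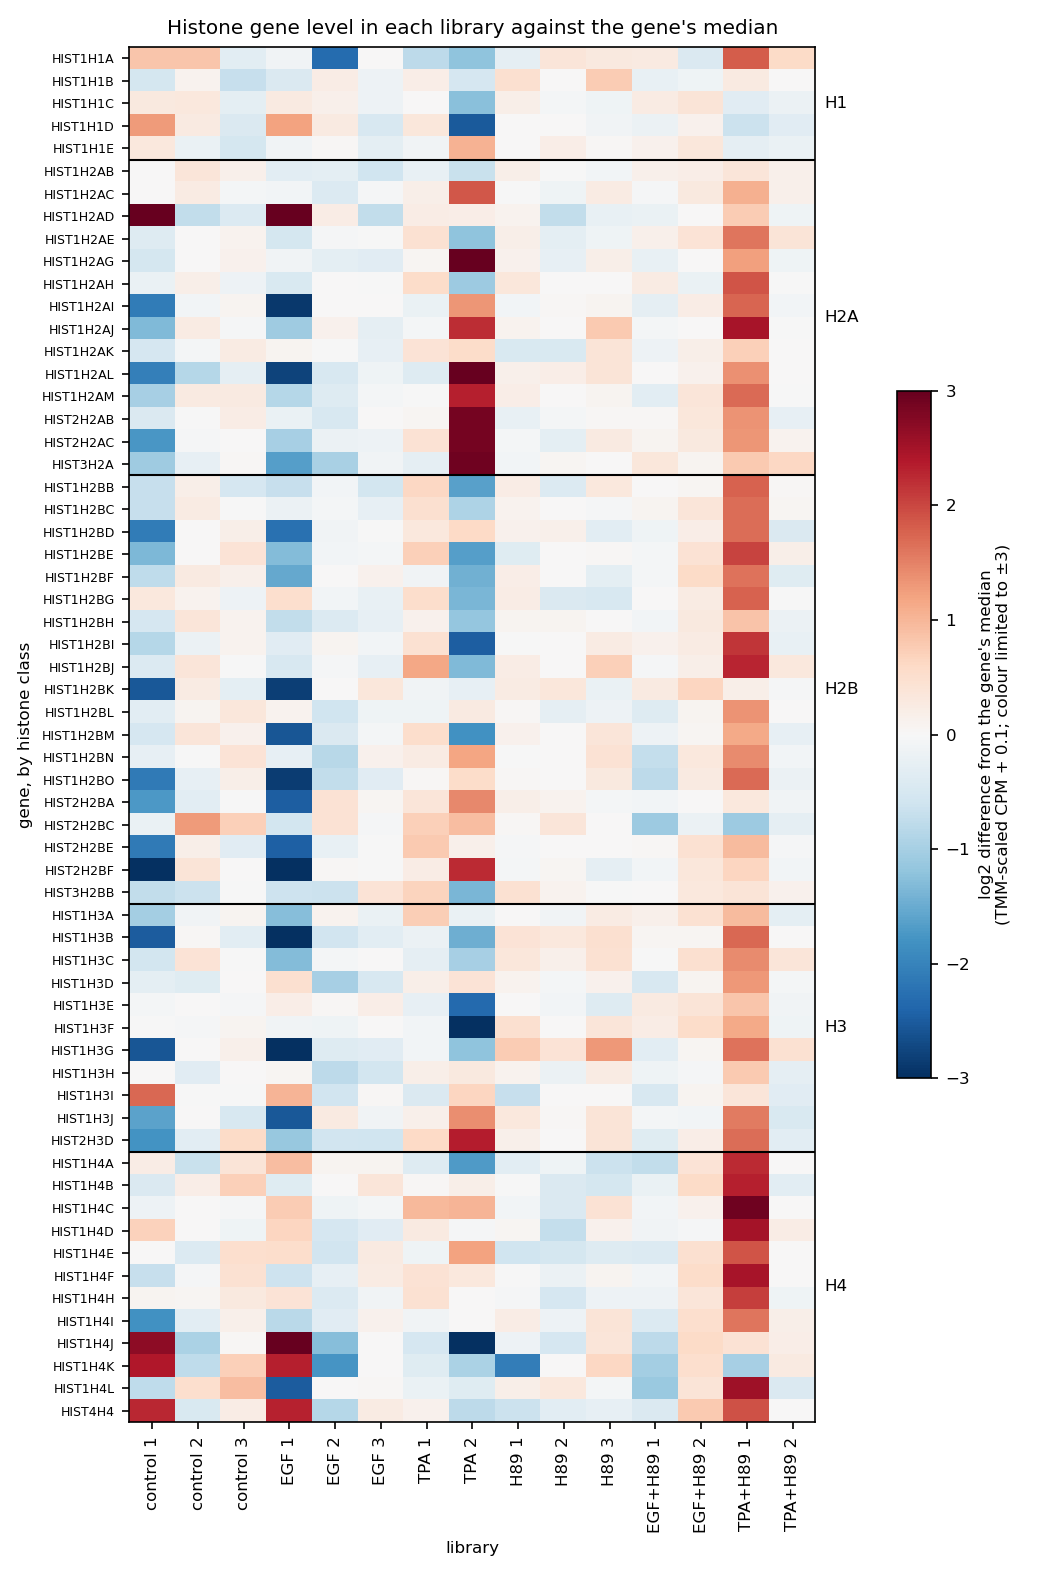
Log2 difference of each of the 61 tested histone genes (rows, by class) in each of 15 libraries (columns) from that gene's median over the libraries, on TMM-scaled CPM plus 0.1; red is above and blue below the median. TPA 2 is red in most H2A rows, TPA+H89 1 is red in most rows below H1, and control 1 and EGF 1 share a pattern of their own.

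Total histone levels of the control, EGF, H89 and EGF+H89 libraries lay in overlapping ranges. Summed histone levels were 942, 1036 and 1004 CPM in the controls, 1032, 868 and 963 with EGF, 998.7, 909.6 and 992 with H89, and 970 and 1261 with EGF+H89. TPA gave 1153 and 1806, and TPA+H89 gave 2688 and 959.6. Without TPA 2 and TPA+H89 1 the other 13 libraries ran from 868 to 1261 CPM.

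**Figure D2:**
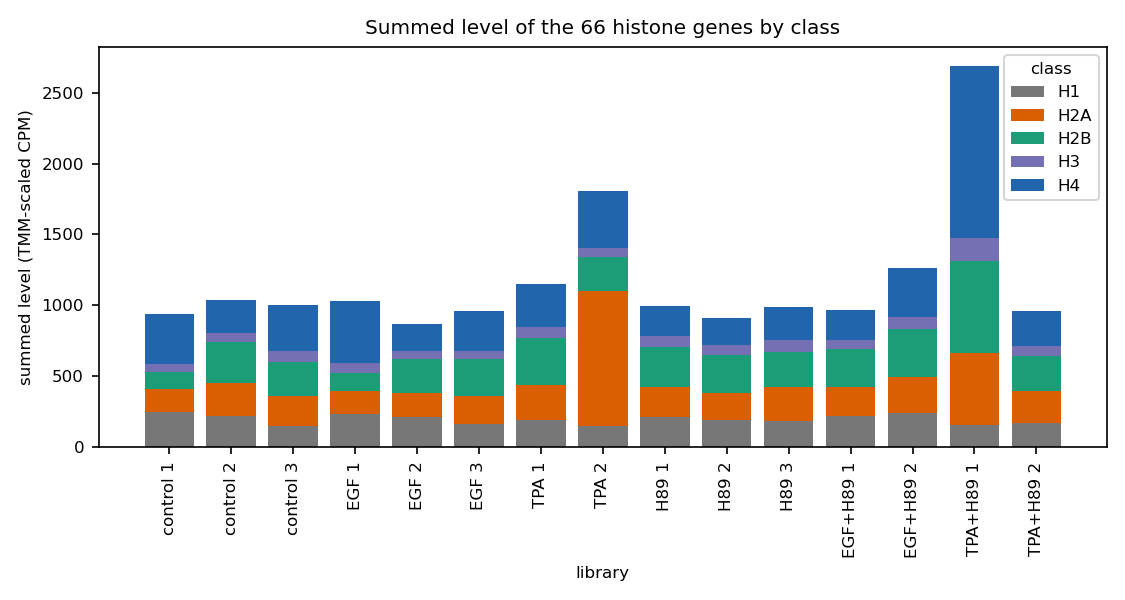
Summed level of the 66 histone genes in each library, in TMM-scaled CPM, stacked by class. TPA 2 (1806 CPM, of which H2A is 957) and TPA+H89 1 (2688 CPM, of which H4 is 1210) are the tallest bars, and the other 13 lie between 868 and 1261.

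In library TPA 2 the core histones were not high together: the H2A sum alone lay above all other libraries. H2A genes summed to 957 CPM there against 159 to 506 CPM in the other 14 libraries and 244 in TPA 1. They took 53.0% of the library's histone counts, against 15.9% to 24.3% elsewhere. H2B (237 CPM), H3 (67.3 CPM) and H4 (399 CPM) sums in TPA 2 lay inside the ranges of the other libraries, and H1 (147 CPM) was the lowest of the 15 by less than 1 CPM below control 3. This library was also the deepest, and 21.2% of all genes tested had their highest level in it and 14.9% their lowest. Of the 61 tested histone genes, 11 were highest in it and 17 lowest, of which 7 and 3 were H2A genes. The others highest in it were HIST2H2BF (35.4 CPM), HIST2H2BA (4.11), HIST2H3D (7.09) and HIST1H1E (85.0).

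Library TPA+H89 1 stood apart in another way, with H2A, H2B, H3 and H4 all high. Its class sums were 506, 649, 166 and 1210 CPM, of which the last 3 were the highest of the 15 libraries, and H4 took 45% of its histone counts. H1 was not raised with them (157 CPM, range over libraries 147 to 249.5). It held the highest level of 39 of the 61 genes, including 14 of 19 H2B, 9 of 11 H3 and 9 of 12 H4 genes, and of 28 of the 61 when libraries were scaled by total counts; 12.5% of all genes tested were highest in it. This library was the shallowest, and RMRP, a short non-coding RNA with no poly(A) tail, took 13.4% of its counts against 0.34% to 3.33% elsewhere; its part in the histone values was not tested.

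With EGF, a growth factor that signals through the ERK pathway, no histone gene passed the test. In this and each following comparison the test was edgeR's quasi-likelihood fit over all 6 groups with Benjamini-Hochberg adjustment over 18575 genes, and called means an adjusted p under 0.05. None of the 61 histone genes was called, against 0.0269% of all genes tested (with a term for the library sets, also none, against 0.221%), and 1 had an unadjusted p under 0.05 (1.64%, against 1.63% of all genes). The median log2 fold change of the 61 was −0.12 with 44 below 0, where that of all genes was 0.02, and the median standard error of the 61 was 0.56. Within sets the median log2 difference of EGF minus control was −0.06 in A, −0.25 in B and −0.18 in C. HIST1H2AB, which encodes a canonical H2A, measured 4.67, 6.0 and 5.18 CPM in the controls and 3.72, 3.78 and 3.04 CPM with EGF. The 3 EGF libraries lay below the 3 controls, and the log2 fold change was −0.59 ± 0.25 (SE, adjusted p = 1.0). HIST1H3E was the only member above its controls in all 3 EGF libraries (9.66 to 10.8 against 8.99 to 9.42 CPM). Groups failed to overlap upward in 2.97% and downward in 1.99% of all genes, against 1 of 61 histone genes each way.

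TPA gave the most calls of the 10 comparisons over all genes, and none of the 61 histone genes was among them. Of all genes tested 0.415% were called, 0.388% higher and 0.0269% lower. At an unadjusted p under 0.05 there were 10 of 61 members (16.4%, against 13.2% of all genes), 9 of them H2A genes, 8 higher and 1 lower. The class medians of the log2 fold change were 1.43 for H2A, 0.19 for H2B, −0.10 for H3, −0.12 for H4 and −0.63 for H1, beside −0.02 for all genes. HIST2H2AC, of the HIST2 cluster, measured 12.2, 39.8 and 40.9 CPM in the controls and 55.0 and 299 CPM with TPA. Both TPA libraries were above all controls, the first by far less than the second, and the fitted log2 difference was 2.52 ± 0.63 (SE, adjusted p = 0.157). With a term for the 3 library sets it was 2.20 ± 0.51 with an adjusted p of 0.0468, the single histone call of that fit, in which 1.25% of all genes were called.

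The other H2A genes that had low p-values and higher fitted levels with TPA were high in library TPA 2 and not in TPA 1. HIST1H2AB went the other way and was the only H2A gene below all controls in both TPA libraries. It measured 4.67, 6.0 and 5.18 CPM in the controls, 4.0 in TPA 1 and 2.92 in TPA 2. HIST1H2AG measured 8.90, 12.9 and 14.1 CPM in the controls, 13.4 in TPA 1 and 114 in TPA 2. TPA 1 lay inside the control range, and the fitted log2 fold change was 2.41 ± 0.62 (SE, adjusted p = 0.168), falling to 0.17 without TPA 2. HIST3H2A measured 1.82, 3.30 and 4.03 CPM in the controls, 3.28 in TPA 1 and 30.6 in TPA 2, and its log2 fold change of 2.48 ± 0.69 (SE, adjusted p = 0.204) was 0.11 without TPA 2. For HIST2H2AC the value without TPA 2 was 0.83 (adjusted p = 0.748). HIST1H2AC, with the highest level per coding length among the H2A genes, measured 101, 119 and 96.1 CPM in the controls and 113 and 365 with TPA. The same split between the 2 libraries was seen in HIST2H2AB (7.40 and 52.9 CPM), HIST1H2AM (6.23 and 32.0), HIST1H2AL (1.61 and 20.5) and HIST1H2AJ (2.20 and 11.1).

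The count of calls for TPA differed with the TPA library kept and with the tool. With TPA 2 as the lone TPA library, assumed to vary as the other groups do, 11 histone genes were called against control (7 higher and 4 lower; 5.92% of all genes), namely HIST1H2AG, HIST2H2AB, HIST3H2A, HIST2H2AC, HIST1H2AC, HIST1H2AL and HIST1H2AM higher, and HIST1H3F, HIST1H3E, HIST1H1C and HIST1H1D lower. With TPA 1 alone few genes of any kind were called, so the absence of histone calls there says nothing particular to these genes. DESeq2 on all libraries called 5, all H2A and all higher (HIST2H2AC, HIST1H2AG, HIST1H2AL, HIST3H2A and HIST2H2AB), where it called 2.82% of all genes. Without TPA 2 and TPA+H89 1 together the median of the 61 was 0.31.

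Within each set of libraries the TPA difference took a different form. TPA 1 minus control 2 had a median log2 difference of 0.23 over the 61 genes, with H2A at 0.06, H2B at 0.27, H3 at −0.06 and H4 at 0.34, and only 1 gene passed a log2 difference of 1 upward and 1 downward. TPA 2 minus control 3 had a median of −0.13, with H2A at 2.00 and H2B at −0.92; 15 genes passed 1 upward (24.6%, against 16.4% of all genes) and 20 downward (32.8%, against 14.2%). Genes low in TPA 2 included HIST1H3F (0.793 CPM, against 6.68 to 16.2 in the other libraries), HIST1H3E (1.78, against 7.16 to 16.8), HIST1H4J (0.132) and HIST1H2BI (1.27, against 4.13 to 34.1). HIST1H1C, the H1 gene with the highest level, measured 153, 155 and 101 CPM in the controls, 124 in TPA 1 and 51.9 in TPA 2. Groups did not overlap, higher with TPA, for 9 of 61 histone genes (9.6% of all genes) and lower for 4 (10.1%); the 9 included HIST2H2AC, HIST1H4C (34.2, 38.3 and 37.5 CPM against 75.0 and 77.8), HIST1H3D and HIST1H3H.

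**Figure D3:**
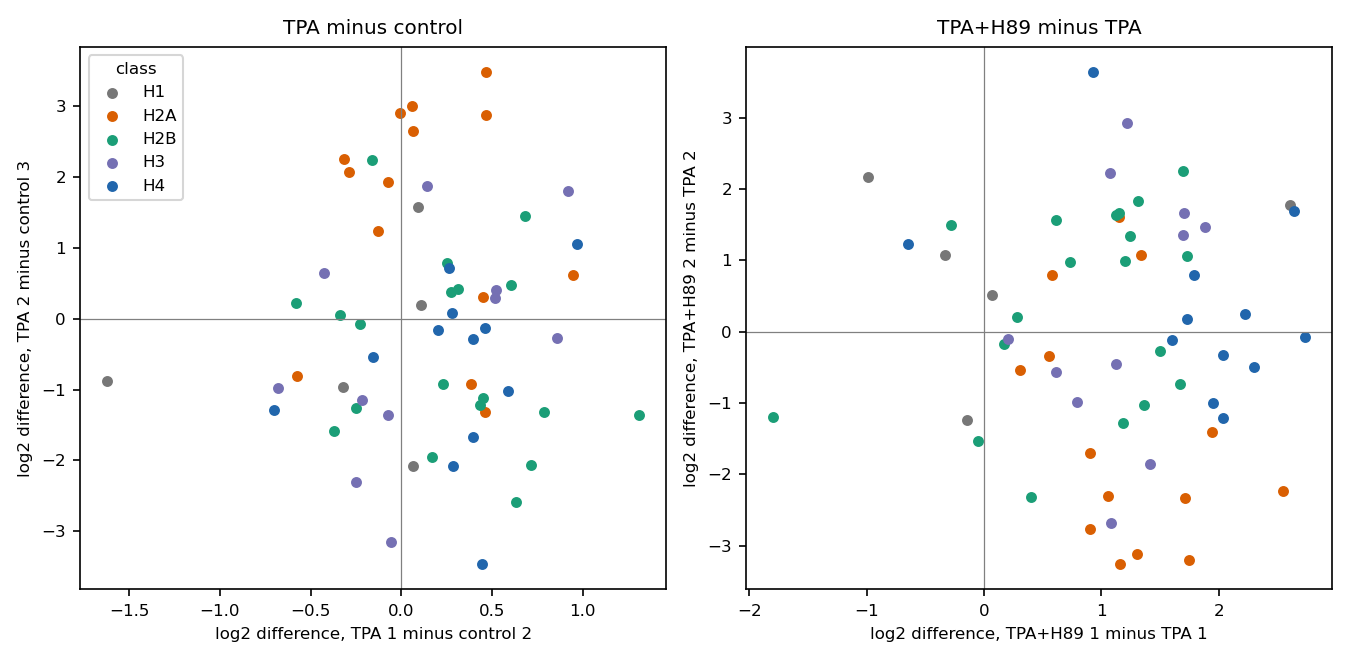
Log2 difference of 61 histone genes between 2 libraries of the same set: TPA minus control on the left and TPA+H89 minus TPA on the right, with the set B pair on the x axis and the set C pair on the y axis, coloured by class. On the left the H2A median is 2.00 on the y axis and 0.06 on the x axis, and in the right panel 54 of 61 points lie right of 0 while 29 lie above 0.

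In TPA 2, H2A genes were high relative to the H2B partner with which they share a promoter region. The log2 ratio of H2A to H2B counts, which needs no scaling between libraries, was computed for the 10 head-to-head pairs with both genes tested, adding 0.5 to each count. In 6 of 10 pairs TPA 2 lay above all 14 other libraries. For HIST1H2AG and HIST1H2BJ the ratio was 5.02 in TPA 2, −0.57 in TPA 1 and −0.57 to 0.90 over the other 14. HIST3H2A over HIST3H2BB was 5.45 in TPA 2 and −0.05 to 1.5 elsewhere. HIST1H2AC over HIST1H2BC was 3.87 against 0.47 to 1.78, and HIST2H2AC over HIST2H2BE was 3.11 against 0.02 to 1.86. The pairs of HIST1H2AJ and HIST1H2AI with HIST1H2BM and HIST1H2BL did likewise (5.05 and 1.92).

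Other pairs were not above the rest in TPA 2. HIST1H2AE over HIST1H2BG was −0.68 in TPA 2, inside the range of −1.85 to −0.41, and both genes were at their lowest there (6.11 and 9.76 CPM). HIST1H2AH over HIST1H2BK was −4.34, the lowest of the 15 libraries. The printed promoters of HIST1H2AG and HIST1H2AE both hold the octamer, CCAAT and TATAAA, and HIST1H2AG also holds TTTCGCGC, which HIST1H2AE does not. In HIST1H2AE the only TATAAA match lies on the other strand, at the end far from its start. HIST1H2AG has such a match and also one near its start. TTTCGCGC did not separate the pairs. Of the H2A genes whose pairs lay above the rest, HIST1H2AI and HIST1H2AJ also hold it. HIST2H2AC, HIST3H2A and HIST1H2AC of those pairs do not. HIST1H2AM holds it, and its pair was not above the rest.

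**Figure D4:**
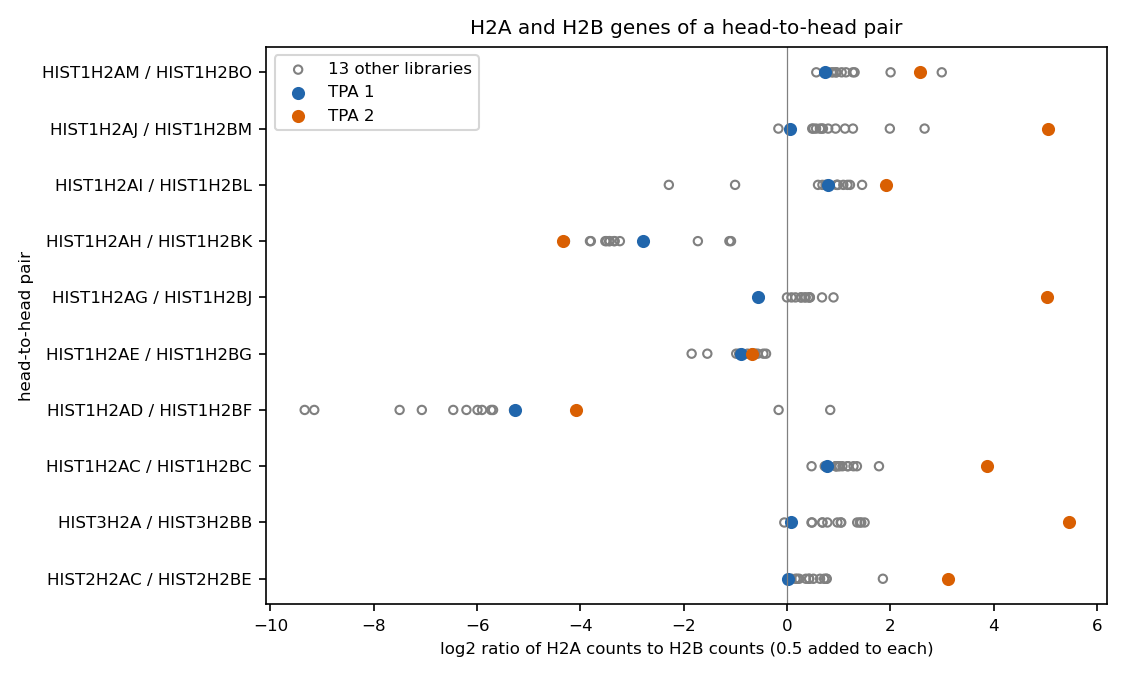
Log2 ratio of H2A to H2B counts (x axis) for 10 head-to-head gene pairs (rows); open circles are 13 libraries and filled points the 2 TPA libraries. TPA 2 lies right of all other libraries in 6 pairs, and TPA 1 lies among or near the rest.

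H89 alone, taken at 30 min, gave no called histone gene, and no gene of any kind was called (0.0%). At an unadjusted p under 0.05 there was 1 histone gene, HIST1H1B (1.64%, against 3.27% of all genes). This linker histone gene measured 6.82, 10.6 and 6.07 CPM in the controls and 13.9, 10.1 and 17 CPM with H89. The lowest H89 library lay below the highest control, and the log2 fold change was 0.81 ± 0.31 (SE, adjusted p = 1.0). DESeq2 and the fit with the set term also called none of the 61, against 3 and 0 of all 18575 genes. H4 genes had a median log2 fold change of −0.40 with 10 of 12 below 0, beside −0.05 for all genes; within sets the H4 medians were −0.09 in B and −0.50 in C. HIST1H4H was below its controls in all 3 H89 libraries (33.5, 33.2 and 38.9 CPM against 30.8, 22.4 and 28.3), and HIST1H3G above them (0.413, 2.94 and 3.29 against 5.09, 3.96 and 7.37). Of the 61 genes, 4 lay higher without overlap (2.85% of all genes) and 1 lower (4.26%).

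With H89 before EGF, more histone genes lay above their EGF-only levels than below, but no gene passed the test. None of the 61 was called (0.0% of all genes), and 1 had an unadjusted p under 0.05 (1.64%, against 1.67%). DESeq2 also called none of the 61, against 1 of all 18575 genes. The groups did not overlap, higher with the inhibitor, for 21 of 61 genes (34.4%), against 7.6% of all genes, and lower for none (10.1%). These comprised 1 H1, 7 H2A, 7 H2B, 6 H3 and 0 H4 genes. The EGF group held a set A library, EGF 1, and the EGF+H89 group held none. For genes low in set A, treatment and set therefore cannot be told apart in EGF 1. Such genes among the 21 were HIST2H3D, HIST2H2BE, HIST2H2AC, HIST3H2A, HIST1H3A, HIST1H3B, HIST1H3G and HIST1H2AL, below all other libraries in both set A libraries. The median log2 fold change was 0.33 with 49 of 61 above 0, beside −0.07 for all genes. Set B had a median difference of 0.10 (44 of 61 higher) and set C of 0.38 (56 of 61 higher). HIST1H2BC measured 42.0, 45.4 and 40.2 CPM with EGF and 50.8 and 61.7 with EGF+H89. HIST2H2AC measured 20.4, 36.3 and 36.6 CPM with EGF and 43.1 and 49.8 with EGF+H89, where EGF 1, a set A library, was the lowest. Of the 3 genes with the lowest p, HIST1H2AB had a log2 change of 0.59 ± 0.27 (SE, adjusted p = 1.0). HIST1H2AD had −3.96 ± 2.42, which rested on EGF 1 (2.68 CPM, against 0.0934 and 0 in EGF 2 and EGF 3) and turned to 1.18 with the set term. EGF+H89 against H89 gave no called histone gene (0.0269% of all genes) and none at an unadjusted p under 0.05 (1.53% of all genes), with a median of 0.06. Of the 61, 4 lay higher without overlap (10.7% of all genes) and 6 lower (11.9%).

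H89 before TPA again gave no called histone gene and no call over all genes (0.0%). DESeq2 called none of the 61, against 9 of all 18575 genes. At an unadjusted p under 0.05 there were 16 of 61 members (26.2%, against 7.0% of all genes), 14 higher and 2 lower. The class medians of TPA+H89 against TPA were 1.38 for H4, 0.74 for H2B, 0.47 for H3, 0.24 for H1 and −0.37 for H2A. HIST1H4A measured 1.70 and 0.628 CPM with TPA and 11.1 and 2.26 CPM with TPA+H89. The groups did not overlap, and the log2 fold change was 2.50 ± 0.76 (SE, adjusted p = 0.713). Of the 61, 10 lay higher without overlap (10.6% of all genes) and 3 lower (11.1%). HIST1H3C followed with 1.59 ± 0.51 and HIST1H3E with 1.39 ± 0.52 (both adjusted p = 0.713). Without TPA+H89 1 the values of HIST1H4A, HIST1H3C and HIST1H3E were 1.04, 1.05 and 0.93.

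The positive median rested on TPA+H89 1. Without it the median of the 61 turned from 0.55 to −0.10, and without TPA 2 as well to −0.20. In set B, TPA+H89 1 minus TPA 1 was positive for 54 of 61 genes with a median of 1.19, and H4 stood at 1.99; 63.9% of the 61 passed a log2 difference of 1 upward, against 9.13% of all genes. In set C, TPA+H89 2 minus TPA 2 had a median of −0.11, with H2A at −1.97 and H2B at 0.97. HIST1H4C gives an example of the first library: 290 CPM in TPA+H89 1, 38.9 in TPA+H89 2, and 28.4 to 77.8 in the other 13. HIST1H4E measured 315 and 84.4 CPM with TPA+H89, and 56.1 to 196 in the other 13. With TPA 2 as the lone TPA library 8 histone genes were called (5 higher and 3 lower; 3.59% of all genes): HIST1H3E, HIST1H3F, HIST1H2AE, HIST1H2BI and HIST1H2BJ higher and HIST1H2AG, HIST2H2AB and HIST3H2A lower, the reverse of the TPA 2 pattern above, whose library both comparisons share.

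TPA+H89 against H89 gave no called histone gene (0.0969% of all genes) and 11 of 61 at an unadjusted p under 0.05 (18%, against 3.89%), of which 7 were H4 genes. HIST1H4C measured 36.3, 28.4 and 51.6 CPM with H89, and had a log2 change of 2.08 ± 0.57 (SE, adjusted p = 0.588) that was 0.01 without TPA+H89 1. HIST1H4D (14.2, 8.29 and 14.9 CPM with H89, 78.0 and 15.9 with TPA+H89) did not overlap, with 1.90 ± 0.55 (SE, adjusted p = 0.671), and 0.36 without TPA+H89 1. The median of the 61, 0.72, turned to −0.09 without TPA+H89 1. Of the 61, 8 lay higher without overlap (9.92% of all genes) and 4 lower (10.9%). The fit with the set term called none of the 61 (0.431% of all genes). With TPA+H89 1 as the lone library of its group HIST1H4C and HIST1H4H were called higher (0.0611% of all genes).

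Compared directly, TPA and EGF differed in no called histone gene, as in no gene overall (0.0%). There were 13 of 61 members at an unadjusted p under 0.05 (21.3%, against 13.4%), 8 of them H2A genes, all 8 higher with TPA. HIST3H2A led with a log2 difference of 2.90 ± 0.69 and HIST1H2AG followed with 2.55 ± 0.62 and HIST2H2AC with 2.51 ± 0.63 (SE, adjusted p = 0.301 for each). Without TPA 2 these were 0.53, 0.31 and 0.82. HIST3H2A measured 1.18, 1.96 and 3.66 CPM with EGF, so TPA 1 (3.28) lay inside the EGF range and TPA 2 (30.6) far above it. DESeq2 called 6 members, HIST3H2A, HIST1H2AG, HIST2H2AC, HIST2H2AB, HIST1H2AL and HIST2H3D (1.62% of all genes), and 12 were called with TPA 2 as the lone TPA library (5.81%). Of the 61, 16 lay higher without overlap (9.71% of all genes) and 2 lower (11.1%). In set B, TPA 1 minus EGF 2 was positive for 47 of 61 genes with a median of 0.44. In set C the median was −0.00, with 30 of 61 positive.

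The interaction terms ask whether a mitogen's effect differed with H89 present. Neither had a called histone gene or any called gene (0.0%). For EGF no member had an unadjusted p under 0.05 (0.258% of all genes) and the median was 0.26, beside −0.04 for all genes. For TPA 8 did (13.1%, against 4.78%), 5 of them H4 genes, led by HIST1H4A at 2.92 ± 0.95 (SE, adjusted p = 0.9), which was 1.44 without TPA+H89 1. HIST1H4B, the H4 gene whose promoter is printed, had 1.98 ± 0.81 (SE, adjusted p = 0.9), and 0.13 without TPA+H89 1. It measured 32.1 and 35.1 CPM with TPA, and 158 and 24.8 CPM with TPA+H89. The TPA median of 0.68 turned to −0.29 without TPA+H89 1, and 3 members were called (HIST1H3E and HIST1H3F higher, HIST1H2AG lower; 0.629% of all genes) with TPA 2 as the lone TPA library.

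**Figure D5:**
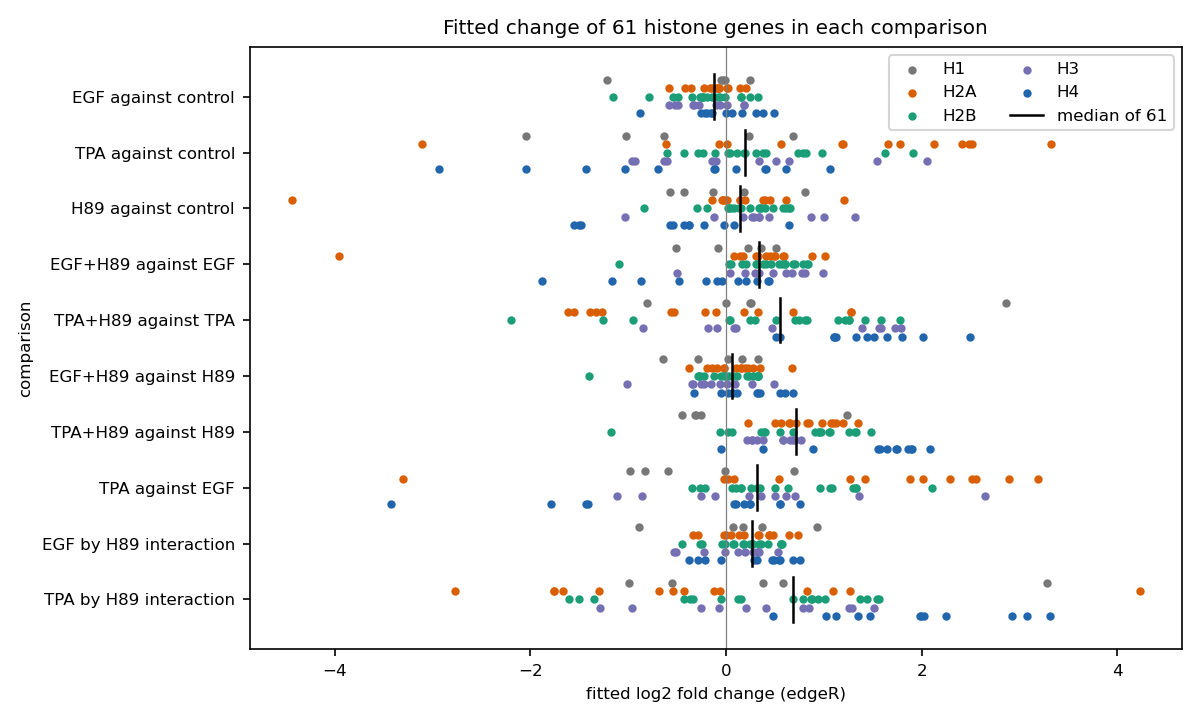
Fitted log2 fold change of the 61 tested histone genes in each of 10 comparisons, coloured by class, with the median of the 61 as a black bar. Medians run from −0.12 for EGF against control to 0.72 for TPA+H89 against H89; H2A genes lie to the right in the TPA comparisons and H4 genes to the right in the TPA+H89 comparisons.

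The set A libraries, 1 untreated and 1 with EGF, were alike in which histone genes they held. Both lay below all other 13 libraries for 19 of the 61 genes (31.1%, against 12.5% of all genes tested) and above all of them for 6 (9.84%, against 18.9%). The low genes included 3 of the 7 members known to make polyadenylated transcripts as well: HIST1H2BK, HIST2H2BE and HIST1H2BD. The rest of the 7 (HIST1H1C, HIST1H2AC, HIST1H2BC and HIST1H2BJ) overlapped the other libraries. HIST1H2BK measured 10.3 and 8.43 CPM against 49.4 to 94.1, HIST2H2BE 7.14 and 5.64 against 24.9 to 60.9, HIST1H2BD 6.67 and 6.04 against 21.4 to 92.9, and HIST2H2BF 0.521 and 0.424 against 6.16 to 35.4. The high genes were HIST4H4, HIST1H4J, HIST1H4K, HIST1H2AD, HIST1H1D and HIST1H3I. HIST4H4 measured 109 and 112 CPM against a median of 19.0 in the others, and HIST1H4J 16.1 and 24.6 CPM against 0.132 to 3.65. H2B genes took 12.6% of histone counts in both set A libraries and 13.1% to 29.5% in the others.

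The 7 members fixed as also making polyadenylated transcripts (HIST1H1C, HIST1H2AC, HIST1H2BC, HIST1H2BD, HIST1H2BJ, HIST1H2BK and HIST2H2BE) had no call in any comparison. Their median log2 fold change against control was −0.08 for EGF, 0.38 for TPA and 0.33 for H89. The lowest adjusted p among them was 0.276, for HIST1H2AC with TPA (1.19 ± 0.40, SE), which was at 113 CPM in TPA 1, inside the control range, and 365 in TPA 2. HIST1H2BJ measured 11.5 and 19.9 CPM in control 2 and TPA 1, and 8.84 and 3.49 CPM in control 3 and TPA 2, so the difference had opposite signs in the 2 sets.

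Genes that act on histone mRNA gave no call. Of the 26 tested factors of histone transcription, processing and decay, none was called in any of the 10 comparisons, and their medians were 0.01 for EGF, 0.04 for TPA and −0.04 for H89. SLBP measured 49.0, 41.3 and 41.9 CPM in the controls, 71.8, 36.7 and 39.5 with EGF, 39.6 and 80.8 with TPA, and 35.3 and 50.8 with TPA+H89; the high values were in EGF 1 and TPA 2. NPAT measured 17.4, 24.5 and 25.1 CPM in the controls, 26.6 in TPA 1 and 10.9 in TPA 2, its lowest library. ZNF473, a partner of the U7 snRNP in 3′ processing, had the lowest p of the list with TPA, at a log2 change of −0.90 ± 0.30 (SE, adjusted p = 0.261). HINFP, which binds H4 promoters, had −1.03 ± 0.38 (SE, adjusted p = 0.295). Both were lowest in TPA 2: ZNF473 measured 7.34 CPM in TPA 1 and 3.69 in TPA 2, and HINFP 8.24 and 4.05.

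No S phase gene passed the test. None of 25 was called in any comparison, and their sum ran from 288 to 366 CPM over the 15 libraries, with 341 in TPA 2 and 336 in TPA+H89 1. TK1, of thymidine salvage, had the lowest p with TPA, at 1.40 ± 0.49 (SE, adjusted p = 0.286), followed by the helicase subunit MCM7 at −0.66 ± 0.24 (adjusted p = 0.293). TK1 measured 6.45, 9.24 and 6.87 CPM in the controls, 10.7 in TPA 1 and 28.8 in TPA 2. Of RNAs other than histones listed as lacking a poly(A) tail, 5 were tested (RMRP, RPPH1, TERC, RNR1 and RNR2), and none was called in any comparison. Like RMRP, RPPH1 and TERC were highest in TPA+H89 1, at 82289 and 155 CPM. Their next highest levels were 57481 and 94.1 CPM, both in TPA 2. RNR1 and RNR2 were highest in control 2. None of 19 histone chaperones was called in any comparison, and DAXX, an H3.3 chaperone, was at −0.80 ± 0.31 with TPA (adjusted p = 0.326).

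The histone variants listed as replication-independent had a positive median with TPA but no call. None of 11 tested was called in any comparison, and their median log2 fold change was 0.87 for TPA, 0.02 for EGF and 0.38 for H89 against control. H3F3B, which encodes H3.3, measured 125, 242 and 276 CPM in the controls and 525 and 486 with TPA. Both TPA libraries were above all controls, with a log2 change of 1.24 ± 0.33 (SE, adjusted p = 0.185). H2AFX had 1.89 ± 0.51 (SE, adjusted p = 0.199). It measured 7.17, 9.30 and 9.51 CPM in the controls, 10.1 in TPA 1 and 54.1 in TPA 2, so the difference lay mainly in TPA 2. The variants' sum was 458.5 to 668 CPM in the controls, 970 and 1255 with TPA, and 1304 and 813 with TPA+H89, so TPA 2 and TPA+H89 1 were again the highest libraries.

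Some mitogen-response genes measured in the same libraries passed the test. Of 5 immediate-early genes, 2 were called higher with EGF and 4 with TPA. Over all genes tested, 0.0269% were called higher with EGF and 0.388% with TPA. EGR1, FOS and NR4A1 were not called with EGF. DUSP5, an ERK phosphatase, rose by a log2 fold change of 2.62 ± 0.30 with EGF (adjusted p = 0.0162) and 3.72 ± 0.33 with TPA (adjusted p = 0.000821). The transcription factor EGR2 rose by 4.11 ± 0.52 with EGF (adjusted p = 0.0207) and 5.49 ± 0.57 with TPA (adjusted p = 0.00131).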

How the data were processed

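Ribosomal-RNA-depleted, strand-specific RNA libraries of CCD-1070Sk cells were analysed from a deposited table of whole-number read counts per gene. Per the submitters' processing notes, HOMER and the builds hg19 and GRCh37 were used; for the aligner and annotation, the name is not given in the sources used here. Coordinates printed are RefSeq's on GRCh38.p14.

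Counts of 15 libraries (totals 7527026 to 130075914) were fitted with edgeR 4.0.16 (TMM, default expression filter with a minimum count of 10, quasi-likelihood test, all 6 groups, no covariate; adjusted p under 0.05), after a check on simulated data. Differences between single libraries used log2(TMM-scaled CPM + 0.1). Alternatives were DESeq2 1.42.0, its size factors, 2 other filters, the compared groups only, both control copies and a term for the library sets. Others were limma 3.58.1 with voom quality weights, each library left out, and library sizes without the RNAs listed as lacking a poly(A) tail. Named genes were the 4 of highest mean level in each class, those called or the 3 of lowest p, members also polyadenylated, SLBP and NPAT, and up to 4 by adjusted p from each other list; a gene outside this rule was named after its values were seen. The members and lists were chosen with earlier results of these data known.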

Additional observations from a re-analysis of the deposited data

How the results depend on the processing

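Across 26 other settings, 252 of 260 counts of called histone genes stayed at 0, as in the reported fit. The exceptions were DESeq2 (5 for TPA against control and 6 for TPA against EGF), the term for library sets (1 for TPA against control), and fits with 1 library left out. Calls were few over all genes as well. In the reported fit 77 of 18575 genes were called for TPA against control and 18 for TPA+H89 against H89. EGF against control and EGF+H89 against H89 had 5 each, and the other comparisons had 0. A histone count of 0 was therefore near the share of all genes and is not evidence of stability. Leaving out each library in turn gave 0 to 11 for TPA against control, 0 to 12 for TPA against EGF, 0 to 8 for TPA+H89 against TPA, 0 to 3 for the TPA by H89 interaction (all at the upper value without TPA 1, where TPA 2 stands alone) and 0 to 2 for TPA+H89 against H89 (2 without TPA+H89 2). It gave 0 in each fit for the other 5 comparisons. A correction for transcript GC content and the omission of TPA 2 and TPA+H89 1 together, both chosen after seeing the data, gave 0 in every comparison. The log2 fold change of HIST1H2AD reversed to 1.18 with the set term and 1.87 with limma voom for EGF+H89 against EGF, and to 0.77 with the set term for H89 against control; the cause was not tested. Median log2 fold changes left the 0.39 spread between libraries in 8 of 260 values, each with TPA+H89 1 or TPA+H89 2 left out. Histone counts ran from 14752 to 218587 per library, and with 2 or 3 libraries a group the fitted changes against control had median standard errors of 0.56 to 0.63 over the 61 genes. No paired analysis was possible because the labels number the samples in 1 running series and give no replicate number shared between groups; the only block fitted was the term for library sets, which were read from the counts.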
